A study of Homo sapiens with 12 samples.

Results

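Semaphorins, plexins and neuropilins were followed by RNAseq in SKBR-3 cells, an established HER2-amplified and ER-negative human breast cancer line, after lapatinib, FOXA1 siRNA or their combination. The members were all genes whose symbol belongs to semaphorin classes 3 to 7, the plexins or the neuropilins, which gave 31 of the 20531 genes listed in each sample. Of these, 27 reached 10 counts in at least 1 of the 12 samples and were tested. The family was chosen by the rise of SEMA6C with lapatinib, so the lapatinib response of SEMA6C is described here with no test. The 4 members under the filter were PLXNC1, SEMA5B, SEMA3A and SEMA5A, with at most 7, 6, 2 and 2 counts in any sample. Just inside it were SEMA6D, with at most 10 counts, and PLXNA4, with at most 17.

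Cells were transfected with non-targeting siRNA (NT) or with a pool of siRNAs against FOXA1, for 48 h before the drug according to the labels and for 24 h according to the methods. Then came 24 h of DMSO, the solvent, or of 300 nM lapatinib, which blocks the kinases HER2 and EGFR. The 4 groups were NT with DMSO, NT with lapatinib, FOXA1 siRNA with DMSO and FOXA1 siRNA with lapatinib, each with 3 replicates, all grown in the same medium. FOXA1 is a forkhead pioneer transcription factor. A single cell line and a single siRNA pool were used, and the labels do not say whether replicates were separate cultures, so that p-values measure the spread between these samples, which may be technical. Expected counts (estimated reads per gene) summed to between 25749578 and 32271850 per sample.

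FOXA1 itself was read at 8308 to 8767 normalized counts with NT and DMSO and at 1160 to 1564 with FOXA1 siRNA and DMSO. With lapatinib it was read at 12168 to 13177 with NT and at 1642 to 2384 with FOXA1 siRNA. All 10 luminal and HER2-amplicon markers reached 1 TPM (a level corrected for transcript length), and ESR1 and PGR stayed under 1 TPM in every sample. The 3 basal markers summed to 0.23 to 0.47 TPM with NT and DMSO and 1.4 to 2.1 with FOXA1 siRNA and DMSO, and to 0.05 to 0.16 and 0.83 to 1.49 in lapatinib, mostly KRT5. Neuronal markers, listed because neurons are a source of many semaphorins, summed over 3 genes to 5.49 to 6.74 TPM with NT and DMSO, 10.4 to 10.8 with NT and lapatinib, 6.47 to 7.58 with FOXA1 siRNA and DMSO, and 12.2 to 13.5 with FOXA1 siRNA and lapatinib. SNAP25 was at 0 in all samples, and SYT1 and MAP2 gave that signal. The 4 endothelial markers summed to 8.35 to 11.7, 3.78 to 6.55, 6.96 to 8.94 and 7.1 to 12.1 TPM in the same order, nearly all of it CDH5, with TEK and PECAM1 at no more than 0.03 and 0.27 TPM. The part of these markers in the results was not tested. All samples are of a single cell line, in which fewer cells with a gene's RNA and less RNA per cell cannot be told apart in bulk. Among the 27 tested members, 5 were highest in replicate 2 in all 4 groups (PLXNA3, PLXNB3, SEMA3B, SEMA4B and SEMA6B) and 4 were lowest there (NRP1, NRP2, SEMA3C and SEMA3E). For replicate 3 the numbers were 0 and 5, and for replicate 1 they were 1 and 0. Over all genes with at least 10 counts in every sample, replicate 2 was highest in all 4 groups for 12.9% and lowest for 16.1%, beside 4.93% and 4.20% for replicate 1 and 5.63% and 5.33% for replicate 3.

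Semaphorins are extracellular guidance signals, first known from axon steering and later from blood vessels, immune cells and tumor invasion. Plexins are their transmembrane receptors, whose inner part acts on small GTPases and so on the cytoskeleton and on integrin adhesion. Class 3 semaphorins are secreted and mostly bind a neuropilin, which holds a class A plexin in the complex, whereas SEMA3E binds plexin-D1 (PLXND1) directly. Classes 4 to 6 are membrane proteins, and SEMA7A is held by a GPI anchor. Class 4 members signal largely through class B plexins, which can associate with HER2 and MET, and class 6 members through class A plexins. In breast cancer the class 3 members SEMA3B and SEMA3F are known mainly as growth or spread inhibitors, and SEMA3C, SEMA4D and SEMA7A mainly as promoters of migration or vessel growth.

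In NT cells with DMSO, PLXNB2 was the most abundant member at 376 ± 36.3 TPM (SD, n = 3), above 98.3% of listed genes. It was followed by the secreted ligand SEMA3F at 121 ± 4.63 TPM and by SEMA3C at 57.7 ± 8.18 TPM. PLXNB1 (45.7 ± 1.19 TPM) and SEMA3B (42.9 ± 17.4 TPM) came next and differed by less than the spread of SEMA3B. SEMA6C, by contrast, ranked 22 of 31 at 0.577 ± 0.0208 TPM. NRP1 stood at 31.3 ± 8.21 TPM and NRP2 at 0.283 ± 0.0231 TPM, so that NRP1 made up nearly all neuropilin RNA. PLXNB2 alone made up 376 of the 478 TPM of the plexins. Summed over the family, the 9 plexins held 55.2% of the TPM with NT and DMSO, 66.2% with NT and lapatinib, 55.5% with FOXA1 siRNA and DMSO, and 67.4% with both. In that order the plexins summed to 478, 730, 526 and 779 TPM, of which PLXNB2 alone gave 376, 619, 413 and 679. The 7 class 3 semaphorins held 28.8%, 20.3%, 31.1% and 21.2% in the same order.

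**Figure D1:**
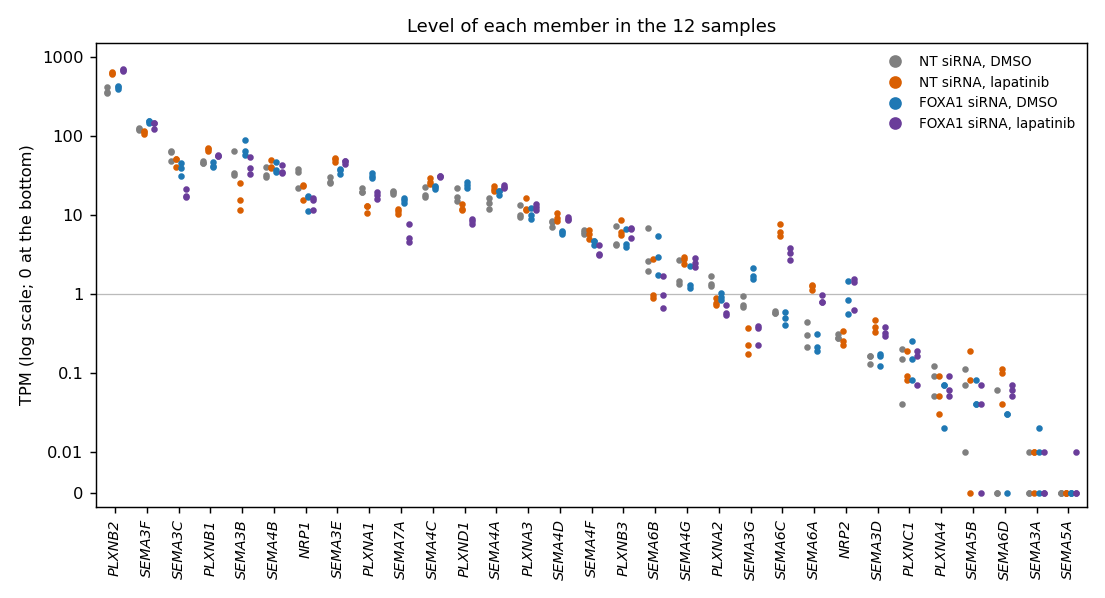
Level of each of the 31 members in TPM (log axis, values of 0 drawn at the bottom) in the 12 samples, colored by group and ordered by the mean in NT cells with DMSO. PLXNB2 lies highest in every group, and SEMA6C moves from under 1 TPM with DMSO to above 1 TPM with lapatinib.

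SEMA6C, a transmembrane class 6 semaphorin on chromosome 1 (151131685 to 151146631, minus strand, GRCh38), rose with lapatinib more than any other member when no sample was left out. Normalized counts (counts scaled by TMM to the average library) were 38.4, 33.7 and 32.6 with NT and DMSO and 374.5, 456 and 346 with NT and lapatinib. Under FOXA1 siRNA the DMSO samples gave 36.0, 26.1 and 24.7 and the lapatinib samples 166, 208 and 238. All 6 lapatinib samples lay above all 6 DMSO samples, and the 3 lapatinib samples with FOXA1 siRNA lay below the 3 with NT. The log2 fold change with lapatinib was 3.51 ± 0.158 (SE) with NT and 2.83 ± 0.206 with FOXA1 siRNA, an 11.4-fold and a 7.09-fold higher level, and the difference between these responses was -0.67 ± 0.274. These values led to the choice of the family and carry no test. FOXA1 siRNA lowered SEMA6C in lapatinib by 1.93-fold (log2 fold change -0.95 ± 0.156, adjusted p = 0.00162). The NT lapatinib samples of that comparison are among those behind the choice, so it is not independent of it. In DMSO the change with FOXA1 siRNA did not pass the test (log2 fold change -0.26 ± 0.223, adjusted p = 0.376), at counts of 26 to 39 per sample.

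**Figure D2:**
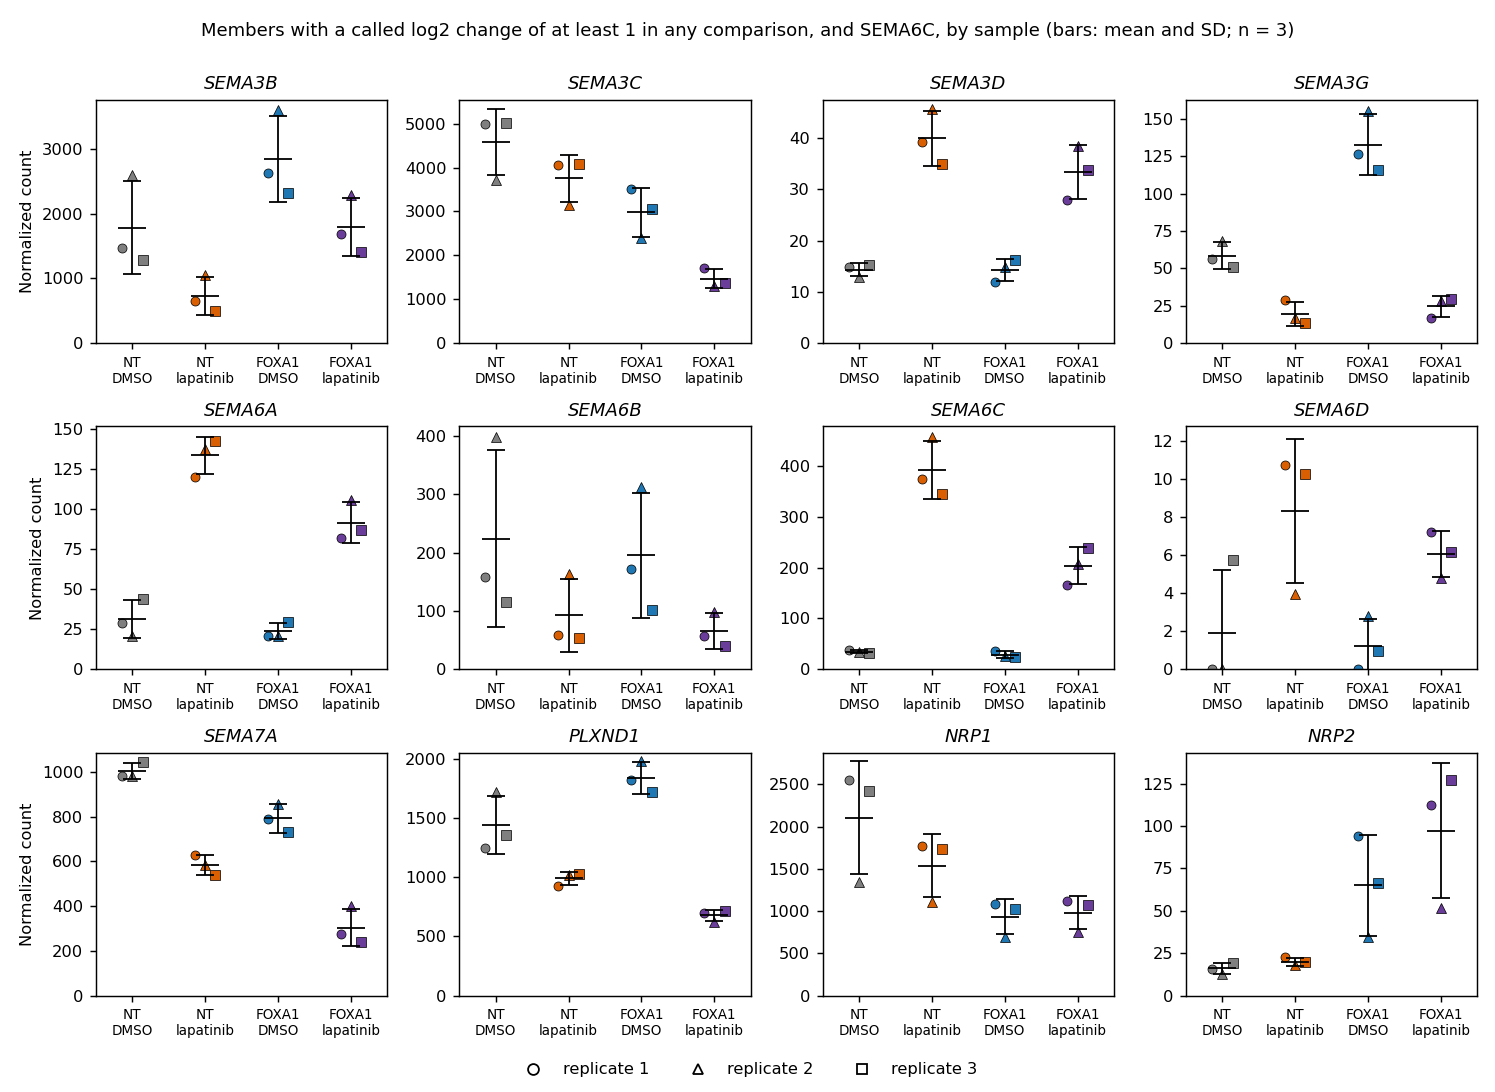
Normalized counts in each sample for SEMA6C and the 11 members with a called log2 fold change of at least 1 in any comparison. NT and FOXA1 on the horizontal axis name the siRNA, symbols the replicate, and bars the mean and SD of 3 samples. SEMA6C and SEMA6A are high in both lapatinib groups, and NRP2 in both FOXA1 siRNA groups.

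Lapatinib with NT siRNA raised the class B plexins PLXNB1 and PLXNB2, the secreted ligands SEMA3D and SEMA3E, the class 4 ligands SEMA4A, SEMA4B, SEMA4C and SEMA4D, and SEMA6A. It lowered PLXNA1, PLXNA2 and PLXND1 and the ligands SEMA3B, SEMA3G and SEMA7A. SEMA6A was 4.33-fold higher and SEMA3G 2.97-fold lower. SEMA6C left aside, 9 of 26 members rose (34.6%) and 6 fell (23.1%) at an adjusted p under 0.05 by edgeR's quasi-likelihood test, while 29.9% of the 14012 genes tested were called higher and 28.6% lower. Counting only a log2 fold change of 1 or more, 2 members rose and 2 fell, beside 6.62% and 7.07% of all genes. The median log2 fold change was 0.32 over the members and 0.03 over all genes. Since a lapatinib response chose the family, the counts are a description. With the replicate number as a block, 12 rose and 9 fell, beside 33.8% and 32.1% of all genes. Without the samples numbered 2, 11 rose and 9 fell, beside 32.3% and 33.1%.

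Lapatinib with FOXA1 siRNA raised PLXNA3, PLXNB1, PLXNB2, SEMA3D, SEMA3E, SEMA4A, SEMA4C, SEMA4D, SEMA4G, SEMA6A and SEMA6D. It lowered PLXNA1, PLXNA2, PLXND1, SEMA3B, SEMA3C, SEMA3G, SEMA4F, SEMA6B and SEMA7A. Thus 11 of 26 members rose and 9 fell, where 28.5% of all genes were called higher and 28.7% lower. Counting only a log2 fold change of 1 or more, 3 members rose and 5 fell, beside 4.96% and 5.13% of all genes. SEMA6D, which passed the filter only through a lapatinib sample, is among the 11 and the 3, and without it 10 and 2 rose. The median log2 fold change was 0.29 over the members and 0.01 over all genes. With the block 13 rose and 9 fell (33.9% and 33.6% of all genes), and without the samples numbered 2 there were 13 and 8 (29.1% and 29.8%). Leaving out FOXA1 siRNA lapatinib replicate 3 left 5 that fell, for which no share of all genes is given. This comparison shares no sample with that in NT cells. The members called higher with both siRNAs were 8, which is 88.9% of those with NT and 72.7% of those with FOXA1 siRNA. Over all genes these shares were 76.2% and 80.0%. The 72.7% counts SEMA6D among the 11, and without it 8 of 10 were shared. All 6 members called lower with NT were also called lower with FOXA1 siRNA, where they made up 66.7% of the list, and the shares over all genes were 81.0% and 80.8%.

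**Figure D3:**
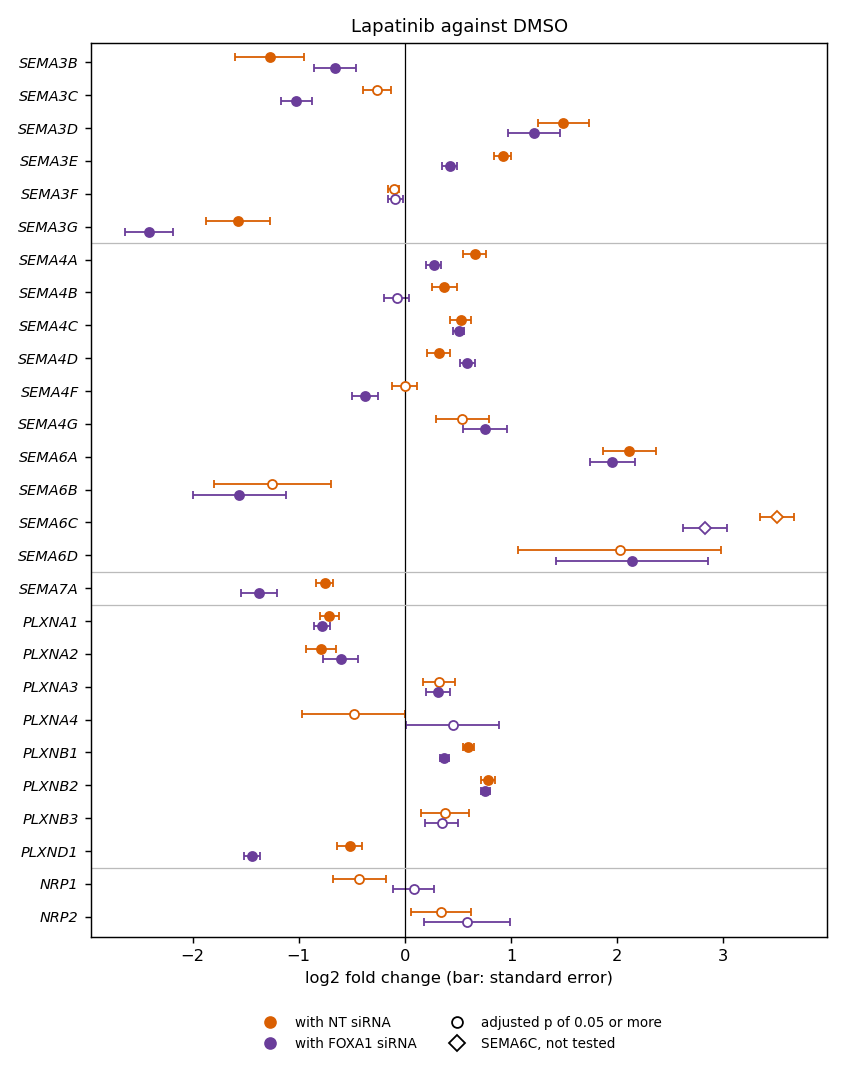
Log2 fold change of lapatinib against DMSO for the 27 tested members (bar: standard error), with NT siRNA (orange) or FOXA1 siRNA (purple), grouped as secreted ligands, membrane ligands, SEMA7A, plexins and neuropilins. Filled symbols have an adjusted p under 0.05, and diamonds mark SEMA6C, which was not tested. SEMA3G, PLXND1, SEMA7A and SEMA3C lie further to the left with FOXA1 siRNA than with NT siRNA. Of these only PLXND1 passed the interaction test with no block (adjusted p = 0.00473), with 0.242 for SEMA3G, 0.0975 for SEMA7A and 0.0703 for SEMA3C. SEMA6D rests on at most 10 counts.

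FOXA1 siRNA in DMSO moved the 2 neuropilins apart, with NRP2 4.06-fold higher and NRP1 2.24-fold lower. It also raised PLXNA1, PLXND1, SEMA3E, SEMA3F, SEMA3G and SEMA4A and lowered PLXNA2, SEMA3C, SEMA4D, SEMA4F and SEMA7A. These were 7 of 27 members higher (25.9%) and 6 lower (22.2%), where 21.0% of all genes were called in each direction, so the shares were near the background. Counting only a log2 fold change of 1 or more, 2 members rose and 1 fell, beside 4.00% and 2.80% of all genes. With the block 11 rose and 8 fell, beside 29.3% and 30.0% of all genes. Without the samples numbered 2, 11 rose and 6 fell, beside 26.4% and 27.1%. Leaving out NT DMSO replicate 2 alone also gave 11 rising, for which no share of all genes is given.

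FOXA1 siRNA in lapatinib again raised NRP2 (4.82-fold) and lowered NRP1 (1.57-fold). It raised SEMA3B, SEMA3F, SEMA4C, PLXNA1 and PLXNB2 and lowered SEMA3C, SEMA4F, SEMA6A, SEMA6C, SEMA7A, PLXNB1 and PLXND1. These were 6 of 27 members higher (22.2%) and 8 lower (29.6%), beside 22.2% and 21.8% of all genes. SEMA6C, whose NT lapatinib values led to the choice of the family, is among the 8, and without it 7 of 26 fell. Counting only a log2 fold change of 1 or more, 2 members rose and 1 fell, beside 4.48% and 3.90% of all genes. With the block 6 rose and 13 fell (30.0% and 30.6% of all genes), and without the samples numbered 2 there were 6 and 10 (24.7% and 24.6%). Each group enters one comparison of drug and one of siRNA, so the lapatinib and the FOXA1 siRNA values of a gene share samples and are given side by side.

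**Figure D4:**
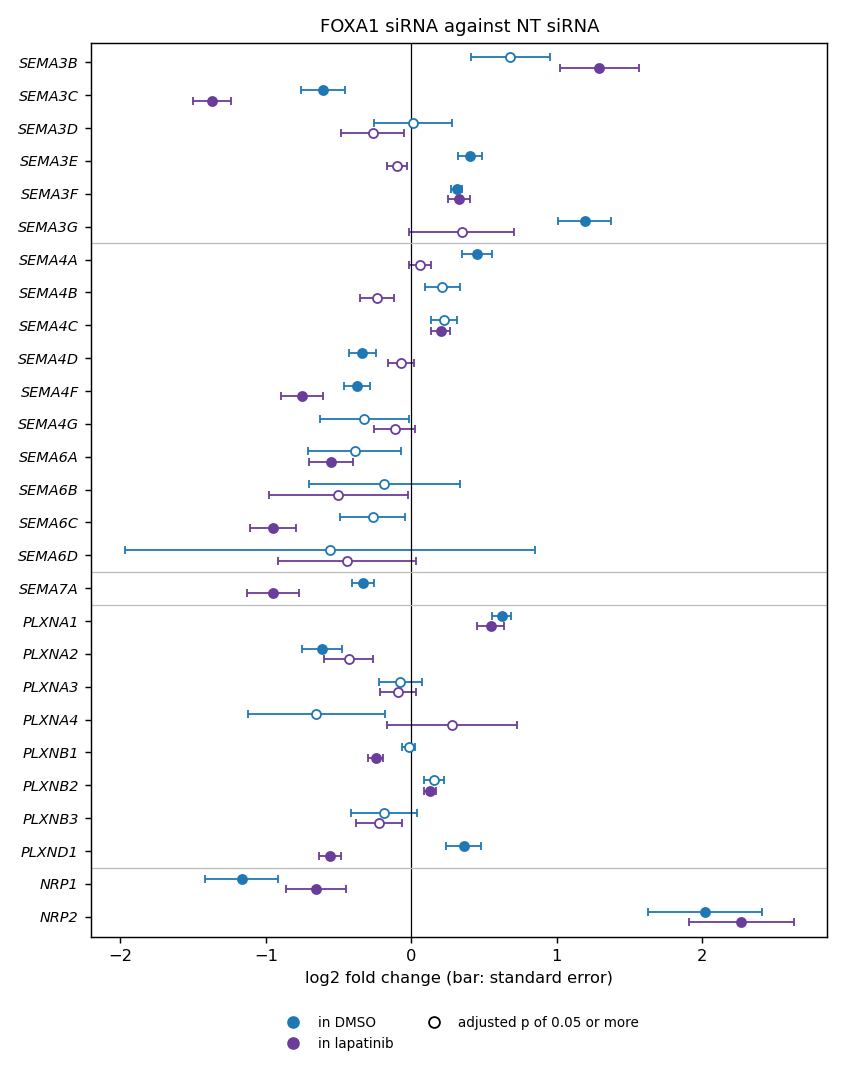
Log2 fold change of FOXA1 siRNA against NT siRNA for the 27 tested members (bar: standard error), in DMSO (blue) or in lapatinib (purple), in the same order of roles. Filled symbols have an adjusted p under 0.05. SEMA6C is filled in lapatinib, where the NT samples are among those behind the choice of the family. NRP2 lies farthest to the right in both, and PLXND1 lies to the right of 0 in DMSO and to the left in lapatinib.

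The response to lapatinib differed between the siRNAs for PLXND1 and SEMA3E, a receptor and its ligand. The interaction, fitted on all 12 samples, was -0.91 ± 0.152 (log2, adjusted p = 0.00473) for PLXND1 and -0.48 ± 0.119 (adjusted p = 0.0303) for SEMA3E. PLXND1 kept its call when any 1 of the 12 samples was left out, with an adjusted p of at most 0.0166, and SEMA3E in only 4 of these 12 fits. It was lost without replicate 1 or 3 of any group except NT DMSO replicate 3, and without FOXA1 siRNA lapatinib replicate 2, at an adjusted p of up to 0.0815. Thus 2 of 26 members were called negative (7.69%), beside 3.20% of all genes, and 0 positive, beside 3.99%. At an unadjusted p under 0.05, 1 member was positive and 7 were negative. No share of all genes is given at that threshold, so these 2 numbers are a description only. DESeq2 called 0 positive and 5 negative at an adjusted p under 0.05, beside 6.94% and 5.32% of all genes by DESeq2. With the replicate block, where 11.1% and 9.22% of all genes were called, NRP1 (adjusted p = 0.00173) and SEMA3B (0.00297) were also positive. PLXNB1 (0.00784), SEMA3C (0.000139), SEMA4A (0.032), SEMA4B (0.000199) and SEMA7A (0.0237) were then also negative, which made 2 and 7. Without the samples numbered 2 the numbers were 2 and 6, beside 10.2% and 7.79% of all genes.

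Of the secreted ligands, SEMA3B, a class 3 semaphorin encoded in the chromosome 3 region 50260226 to 50277546, fell with lapatinib and was higher with FOXA1 siRNA. It gave 1463, 2603 and 1287 normalized counts with NT and DMSO, 643, 1048 and 492 with NT and lapatinib, 2621, 3593 and 2324 with FOXA1 siRNA and DMSO, and 1690.4, 2283 and 1408 with FOXA1 siRNA and lapatinib. Replicate 2 was the highest in every group, yet no lapatinib sample overlapped the DMSO samples of the same siRNA. The log2 fold change with lapatinib was -1.27 ± 0.326 (adjusted p = 0.00956) with NT and -0.66 ± 0.197 (adjusted p = 0.0201) with FOXA1 siRNA. The latter call was lost without FOXA1 siRNA DMSO replicate 2 (adjusted p = 0.0575), FOXA1 siRNA lapatinib replicate 1 (0.0659) or its replicate 3 (0.0725). FOXA1 siRNA raised SEMA3B in lapatinib by 1.29 ± 0.27 (adjusted p = 0.00544) on the log2 scale. In DMSO the difference of 0.68 ± 0.271 did not pass (adjusted p = 0.0761), but did with the replicate block (5.85e-06) or without NT DMSO replicate 2 (0.00178).

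SEMA3C, a secreted ligand that acts through neuropilins and PLXND1, was lowest where both agents were given. Its normalized counts were 4999, 3713 and 5022 with NT and DMSO, 4064, 3140.0 and 4075 with NT and lapatinib, 3502, 2391 and 3059 with FOXA1 siRNA and DMSO, and 1706, 1300.3 and 1379.8 with both. The last 3 values lay below all others. FOXA1 siRNA lowered SEMA3C by 1.53-fold in DMSO (adjusted p = 0.0134) and by 2.59-fold in lapatinib (log2 fold change -1.37 ± 0.131, adjusted p = 0.000101). The call in DMSO was lost without NT DMSO replicate 3 (adjusted p = 0.052). Lapatinib lowered SEMA3C with FOXA1 siRNA (log2 fold change -1.02 ± 0.147, adjusted p = 0.00049). With NT siRNA the log2 fold change was -0.26 ± 0.135, which did not pass (adjusted p = 0.128) but did with the block (0.000514) or without NT DMSO replicate 2 (0.013). The difference between the lapatinib responses of SEMA3C was -0.74 ± 0.228, which did not pass (adjusted p = 0.0703) but did with DESeq2 (0.0147) or the block (0.000139).

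SEMA3G, which acts through NRP2, fell with lapatinib from 56.2, 68.4 and 50.8 normalized counts to 28.5, 16.9 and 13.3 with NT. With FOXA1 siRNA it fell from 127, 155 and 116 to 16.5, 27.9 and 29.7. The 2 lapatinib groups overlapped each other, and each lay below its DMSO group. The log2 fold changes were -1.57 ± 0.301 (adjusted p = 0.00217) and -2.41 ± 0.228 (adjusted p = 5.26e-05), and the difference between them was -0.83 ± 0.393 (adjusted p = 0.242). FOXA1 siRNA raised SEMA3G 2.28-fold in DMSO (adjusted p = 0.00133), whereas in lapatinib the log2 fold change was 0.35 ± 0.36 (adjusted p = 0.47). SEMA3D, a low class 3 ligand, rose with lapatinib from 14.8, 12.9 and 15.3 to 39.2, 45.7 and 34.9 normalized counts with NT and from 12.0, 14.9 and 16.2 to 27.9, 38.4 and 33.8 with FOXA1 siRNA. Its groups did not overlap in either case, with log2 fold changes of 1.49 ± 0.243 (adjusted p = 0.000877) and 1.22 ± 0.247 (adjusted p = 0.00306). With FOXA1 siRNA it differed by 0.01 ± 0.269 in DMSO and by -0.27 ± 0.215 in lapatinib, with adjusted p of 0.977 and 0.349.

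SEMA3E, the ligand of PLXND1, gave 2799, 2533 and 3094 normalized counts with NT and DMSO, 5269, 4827 and 5606 with NT and lapatinib, 3892, 3327 and 3866 with FOXA1 siRNA and DMSO, and 5101, 4599.7 and 5071 with both. The 2 lapatinib groups overlapped, and the DMSO samples with FOXA1 siRNA lay above those with NT. Lapatinib raised it by 0.92 ± 0.0825 (log2, adjusted p = 3.33e-05) with NT and by 0.42 ± 0.0721 (adjusted p = 0.00127) with FOXA1 siRNA. FOXA1 siRNA raised it in DMSO (0.40 ± 0.0839, adjusted p = 0.00589). In lapatinib the log2 fold change was -0.10 ± 0.0686, called only with the block (adjusted p = 0.286 without and 0.0257 with it). SEMA3F, a ligand of NRP2, rose with FOXA1 siRNA by 0.31 ± 0.0388 (log2, adjusted p = 0.000513) in DMSO and by 0.33 ± 0.0787 (adjusted p = 0.0103) in lapatinib. It passed in neither lapatinib comparison (log2 fold change -0.11 ± 0.0543 with NT and -0.09 ± 0.0712 with FOXA1 siRNA, adjusted p = 0.123 and 0.319). SEMA3A, the axon repellent for which the class is best known, had at most 2 counts. SEMA3B and SEMA3F have an antisense gene that overlaps their exons, and the use of strand in the counting is not given in the sources used here.

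The class 4 ligands moved mostly upward with lapatinib and by less than 1 on the log2 scale. SEMA4A, known for its role in immune cells, rose by 0.66 ± 0.111 (log2, adjusted p = 0.00106) with NT and by 0.27 ± 0.0665 (adjusted p = 0.00813) with FOXA1 siRNA, and FOXA1 siRNA raised it in DMSO (0.45 ± 0.104, adjusted p = 0.00961). SEMA4C, a ligand of PLXNB2, rose by 0.53 ± 0.1 (adjusted p = 0.00209) and 0.51 ± 0.0533 (adjusted p = 9.09e-05). With FOXA1 siRNA it was higher by 0.23 ± 0.0918 in DMSO (adjusted p = 0.0824, or 0.00583 with the block and 0.00352 without NT DMSO replicate 2) and by 0.20 ± 0.0654 in lapatinib (adjusted p = 0.0366). The call in lapatinib was lost without replicate 1 or 3 of NT lapatinib (adjusted p = 0.118 and 0.0953) or of FOXA1 siRNA lapatinib (0.109 and 0.114). SEMA4D, the ligand of PLXNB1, rose by 0.59 ± 0.0725 (adjusted p = 0.000212) with FOXA1 siRNA. With NT siRNA it rose by 0.32 ± 0.107 (adjusted p = 0.0313). That call was lost without NT DMSO replicate 2 (adjusted p = 0.0599) or 3 (0.145), without NT lapatinib replicate 2 (0.0895) or 3 (0.0664), and with no filter on low counts (0.0531). FOXA1 siRNA lowered SEMA4D in DMSO (-0.34 ± 0.093, adjusted p = 0.0209), a call lost without NT DMSO replicate 1 (0.083) or FOXA1 siRNA DMSO replicate 1 (0.0727) or 3 (0.053).

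SEMA4B rose with lapatinib in NT cells (0.37 ± 0.116, adjusted p = 0.0233), and the call was lost without NT DMSO replicate 1 (0.0733) or 3 (0.0938) or NT lapatinib replicate 2 (0.0644). With FOXA1 siRNA the lapatinib response of SEMA4B was -0.08 ± 0.119 (adjusted p = 0.611). The difference with FOXA1 siRNA was 0.21 ± 0.122 in DMSO (adjusted p = 0.198, or 0.000682 with the block and 0.0386 without NT DMSO replicate 2). In lapatinib it was -0.24 ± 0.116 (adjusted p = 0.131, or 0.000172 with the block and 0.0212 without FOXA1 siRNA lapatinib replicate 2). SEMA4F fell with FOXA1 siRNA, from 358 to 395 normalized counts to 275 to 306 in DMSO (-0.38 ± 0.0895, adjusted p = 0.011). In lapatinib it fell from 326 to 432 to 205 to 263 (-0.75 ± 0.144, adjusted p = 0.00356). With lapatinib SEMA4F stayed within its spread in NT cells (log2 fold change 0.00 ± 0.119, adjusted p = 0.999). It fell with FOXA1 siRNA (-0.37 ± 0.122, adjusted p = 0.0288), a call lost without replicate 2 or 3 of FOXA1 siRNA DMSO (0.059 and 0.0874) or of FOXA1 siRNA lapatinib (0.0897 and 0.111). SEMA4G rose with lapatinib under FOXA1 siRNA (0.76 ± 0.211, adjusted p = 0.0146). The call was lost without FOXA1 siRNA DMSO replicate 1 (0.0534) or 3 (0.0527) or FOXA1 siRNA lapatinib replicate 3 (0.0545). In NT cells the value of 0.54 ± 0.251 did not pass (adjusted p = 0.0951) but did with the block (0.0235) or without NT DMSO replicate 2 (0.00137). The difference with FOXA1 siRNA in DMSO was -0.32 ± 0.307 (adjusted p = 0.431, or 0.0441 with the block). An exon of MRPL43 overlaps SEMA4G on the other strand.

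Among the class 6 ligands, SEMA6A, which binds class A plexins, rose with lapatinib from 28.6, 20.8 and 44.1 normalized counts to 120.1, 137 and 143 with NT. With FOXA1 siRNA it rose from 21.0, 20.5 and 29.5 to 81.6, 106 and 87.0. No lapatinib sample overlapped a DMSO sample, and the lapatinib samples with FOXA1 siRNA lay below those with NT. The log2 fold changes with lapatinib were 2.11 ± 0.249 (adjusted p = 0.000144) and 1.95 ± 0.211 (adjusted p = 0.000102). FOXA1 siRNA lowered SEMA6A in lapatinib (-0.55 ± 0.15, adjusted p = 0.0176), a call lost without NT lapatinib replicate 3 (0.0622) or FOXA1 siRNA lapatinib replicate 1 (0.0696) or 3 (0.0612). In DMSO the value was -0.39 ± 0.321 (adjusted p = 0.366). By group means SEMA6A followed the same order as SEMA6C. Antisense genes overlap its exons.

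SEMA6B varied widely between replicates, with 158, 398 and 116 normalized counts with NT and DMSO and 58.3, 164 and 54.4 with NT and lapatinib. Cells with FOXA1 siRNA gave 172, 313 and 102 in DMSO and 57.9, 99.0 and 39.9 in lapatinib. Replicate 2 was the highest in every group, and the 2 NT groups overlapped. The log2 fold change with lapatinib was -1.25 ± 0.549 with NT (adjusted p = 0.0814). It passed with the block (6.62e-05), without NT lapatinib replicate 2 (0.0166) or without NT DMSO replicate 3 (0.0386). With FOXA1 siRNA it was -1.56 ± 0.44 (adjusted p = 0.0152), a call lost without FOXA1 siRNA lapatinib replicate 1 (0.0538) or 3 (0.0564). The difference with FOXA1 siRNA was -0.18 ± 0.518 in DMSO (adjusted p = 0.804) and -0.50 ± 0.478 in lapatinib (0.428, or 0.0285 with the block). SEMA6D had 0, 0 and 6 counts with NT and DMSO, 9, 4 and 10 with NT and lapatinib, 0, 3 and 1 with FOXA1 siRNA and DMSO, and 7, 5 and 6 with both. It entered the test through a single lapatinib sample with 10 counts. Its call with FOXA1 siRNA (adjusted p = 0.0313) was absent with DESeq2 (0.104) and was lost without replicate 1 or 3 of FOXA1 siRNA DMSO (0.0726 and 0.0862) or of FOXA1 siRNA lapatinib (0.0869 and 0.0694). With NT its adjusted p was 0.102, or 0.0108 without NT DMSO replicate 3, which leaves DMSO at 0 counts. No fold is given at such counts. The class 5 ligands SEMA5A and SEMA5B had at most 2 and 6 counts.

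SEMA7A, the GPI-anchored ligand of integrin beta-1 and plexin-C1, fell in all 4 comparisons of 2 groups. It gave 983, 981 and 1045 normalized counts with NT and DMSO, 630.1, 584 and 539.7 with NT and lapatinib, 789, 859 and 730.04 with FOXA1 siRNA and DMSO, and 274, 399 and 238 with both. The 4 groups did not overlap. Lapatinib lowered it by 1.69-fold with NT (log2 fold change -0.76 ± 0.079, adjusted p = 7.28e-05) and by 2.59-fold with FOXA1 siRNA (-1.37 ± 0.171, adjusted p = 0.000222). FOXA1 siRNA lowered it by 1.26-fold in DMSO (adjusted p = 0.00872) and by 1.93-fold in lapatinib (adjusted p = 0.00301). The call in DMSO was lost with all 12 samples in one model (adjusted p = 0.0635). The difference between the lapatinib responses was -0.60 ± 0.202 (adjusted p = 0.0975). Its plexin receptor, PLXNC1, had between 1 and 7 counts per sample.

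Among the receptors PLXNB1 and PLXNB2 rose with lapatinib while PLXNA1, PLXNA2 and PLXND1 fell. PLXNB2, a receptor of SEMA4C and SEMA4D, gave 31353, 35182 and 29763 normalized counts with NT and DMSO and 53612, 56561 and 52996 with NT and lapatinib. With FOXA1 siRNA the DMSO samples gave 35826, 36932 and 33850.3 and the lapatinib samples 60954, 58269.7 and 59928. Every lapatinib sample lay above every DMSO sample. Lapatinib raised it 1.72-fold with NT (adjusted p = 3.09e-05) and 1.69-fold with FOXA1 siRNA (adjusted p = 4.58e-06). FOXA1 siRNA added 0.13 ± 0.0412 (log2, adjusted p = 0.037) in lapatinib, a call lost without replicate 1 or 3 of NT lapatinib (0.11 and 0.128) or of FOXA1 siRNA lapatinib (0.133 and 0.101). In DMSO the difference of 0.16 ± 0.0674 did not pass (adjusted p = 0.1) but did with the block (0.000993) or without NT DMSO replicate 2 (0.00522).

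PLXNB1, the receptor of SEMA4D, rose with lapatinib by 0.60 ± 0.0527 (log2, adjusted p = 3.11e-05) with NT and by 0.37 ± 0.0457 (adjusted p = 0.000205) with FOXA1 siRNA. FOXA1 siRNA lowered it in lapatinib (-0.24 ± 0.0504, adjusted p = 0.00512), and in DMSO it differed by -0.02 ± 0.0461 (adjusted p = 0.78). PLXNB3, the receptor of SEMA5A, passed in none of the 4 comparisons when all 6 samples were fitted with no block, and in each with the block, at adjusted p of 0.00158, 0.00468, 0.0323 and 0.0264. It also passed with lapatinib without NT DMSO replicate 2 (0.0212) or, in FOXA1 siRNA cells, without FOXA1 siRNA DMSO replicate 2 (0.00273). Its log2 fold changes were 0.38 ± 0.223 and 0.35 ± 0.156 with lapatinib and -0.19 ± 0.226 and -0.22 ± 0.159 with FOXA1 siRNA. An exon of SRPK3 overlaps PLXNB3 on the same strand, so its counts are uncertain. PLXNA1 fell with lapatinib by 0.71 (SE 0.086, adjusted p = 0.000167) and by 0.78 (SE 0.0745, adjusted p = 5.39e-05) on the log2 scale. It rose with FOXA1 siRNA by 0.62 ± 0.0656 (adjusted p = 0.000234) in DMSO and by 0.55 ± 0.0932 (adjusted p = 0.00196) in lapatinib.

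PLXNA2, another class A plexin, fell with lapatinib by 0.79 (SE 0.141, adjusted p = 0.00145) on the log2 scale in NT cells. Under FOXA1 siRNA it fell by 0.61 (SE 0.169, adjusted p = 0.0146), a call lost without FOXA1 siRNA DMSO replicate 1 (0.0566) or FOXA1 siRNA lapatinib replicate 1 (0.0515) or 3 (0.058). FOXA1 siRNA lowered it in DMSO (-0.61 ± 0.138, adjusted p = 0.00851), and in lapatinib the value of -0.43 ± 0.169 did not pass (adjusted p = 0.0706). It did with the block (0.00742), with all 12 samples in one model (0.0492) or without FOXA1 siRNA lapatinib replicate 2 (0.0155). PLXNA3, which can carry SEMA3F signals, rose with lapatinib by 0.31 ± 0.114 with FOXA1 siRNA (adjusted p = 0.0431). That call was lost without FOXA1 siRNA DMSO replicate 1 (0.135) or 3 (0.115), FOXA1 siRNA lapatinib replicate 2 (0.119) or 3 (0.0936), with 10 counts required in every sample (0.0515) and with all 12 samples in one model (0.102). In NT cells the difference of 0.32 ± 0.153 did not pass (adjusted p = 0.102) but did with the block (0.00117) or without NT DMSO replicate 2 (0.0261), and FOXA1 siRNA left PLXNA3 within -0.09 on the log2 scale (adjusted p = 0.712 and 0.596). An exon of LAGE3 overlaps PLXNA3 on the other strand. PLXNA4 had 4 to 17 counts and passed in no comparison, with adjusted p of 0.3 to 0.642 in the comparisons of 2 groups.

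PLXND1, a vascular guidance receptor, gave 1245, 1714 and 1357 normalized counts with NT and DMSO and 923, 1019 and 1025 with NT and lapatinib. Cells with FOXA1 siRNA gave 1822, 1981 and 1713 in DMSO and 694, 619.9 and 711 in lapatinib. The DMSO groups overlapped through NT replicate 2, while the lapatinib samples with FOXA1 siRNA lay below all others. Lapatinib lowered it 1.43-fold with NT (log2 fold change -0.52 ± 0.12, adjusted p = 0.00581) and 2.71-fold with FOXA1 siRNA (-1.44 ± 0.0762, adjusted p = 4.19e-06). FOXA1 siRNA lowered it in lapatinib (-0.56 ± 0.0762, adjusted p = 0.000614). In DMSO it raised it (0.36 ± 0.12, adjusted p = 0.0413), a call that held only without NT DMSO replicate 2 when samples were left out in turn. Leaving out NT DMSO replicate 1 or 3 gave 0.126 and 0.127, and leaving out FOXA1 siRNA DMSO replicate 1, 2 or 3 gave 0.0954, 0.107 and 0.0649.

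The co-receptors NRP1 and NRP2, which bind class 3 semaphorins and VEGF, responded to FOXA1 siRNA in opposite directions. NRP1 gave 2555, 1339.6 and 2422 normalized counts with NT and DMSO, 1768, 1109 and 1736 with NT and lapatinib, 1082, 693 and 1023 with FOXA1 siRNA and DMSO, and 1119, 753 and 1077 with both. Replicate 2 was the lowest in every group, and the lapatinib groups overlapped through NT replicate 2. The log2 fold change with FOXA1 siRNA was -1.17 ± 0.25 in DMSO (adjusted p = 0.00688) and -0.66 ± 0.204 in lapatinib (adjusted p = 0.0304). The latter call was lost without NT lapatinib replicate 1 (0.102) or 3 (0.0995) or FOXA1 siRNA lapatinib replicate 2 (0.0726) or 3 (0.0549), and with all 12 samples in one model (0.0602). With lapatinib NRP1 differed by -0.43 ± 0.251 in NT cells (adjusted p = 0.172, or 0.000439 with the block and 0.0116 without NT DMSO replicate 2), and by 0.08 ± 0.192 with FOXA1 siRNA (adjusted p = 0.738).

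NRP2 gave 15.8, 12.9 and 19.2 normalized counts with NT and DMSO, 22.6, 17.9 and 19.5 with NT and lapatinib, 93.9, 34.4 and 66.6 with FOXA1 siRNA and DMSO, and 113, 51.9 and 127 with both. All 6 samples with FOXA1 siRNA lay above all 6 with NT, replicate 2 being the lowest in every group. The log2 fold change with FOXA1 siRNA was 2.02 ± 0.39 in DMSO (adjusted p = 0.00419) and 2.27 ± 0.362 in lapatinib (adjusted p = 0.0014), and both calls held when any sample was left out. Even so NRP2 reached only 1.18 ± 0.496 TPM with FOXA1 siRNA and lapatinib, beside 14.3 ± 2.48 TPM for NRP1. With lapatinib it differed by 0.34 ± 0.281 in NT cells (adjusted p = 0.327) and by 0.59 ± 0.403 with FOXA1 siRNA (0.245, or 0.0103 with the block). Both neuropilin genes overlap a noncoding gene on the other strand.

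Since FOXA1 binds forkhead sites, the 250 bases before the RefSeq start (GRCh38.p14) of the members were searched for the forkhead cores GTAAACA and GTCAACA on both strands, that is also as TGTTTAC and TGTTGAC. Windows were given for 27 of the 31 members, 48 in all, with none used here for NRP1, SEMA3A, SEMA6A and SEMA6B. Either core was found in 2 of the 48 windows (4.17%), beside 4.84% of 35116 promoters of the same length, in PLXNA2 and in 1 of the windows of SEMA4B. When all 6 samples were fitted with no block, PLXNA2 fell with FOXA1 siRNA in DMSO (adjusted p = 0.00851) but did not pass in lapatinib (0.0706). SEMA4B passed in neither FOXA1 siRNA comparison in such fits. The windows of SEMA6C, NRP2 and PLXND1 hold neither core, which says only that these letters are not in them. These windows are shown for the calls with FOXA1 siRNA above. That of SEMA6C was made in lapatinib only and is not independent of the choice of the family. Median GC content was 64.8% over the members' windows and 58% over all promoters. The 5 sequences are given 5′ to 3′ in the direction of the gene and without bases that an annotated exon covers, with the forkhead core in capitals.
SEMA6C, chr1:151146632-151146792, minus strand: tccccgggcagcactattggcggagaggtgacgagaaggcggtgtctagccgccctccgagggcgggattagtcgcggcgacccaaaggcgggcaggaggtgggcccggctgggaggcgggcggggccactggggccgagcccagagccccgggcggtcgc
NRP2, chr2:205682251-205682499, plus strand: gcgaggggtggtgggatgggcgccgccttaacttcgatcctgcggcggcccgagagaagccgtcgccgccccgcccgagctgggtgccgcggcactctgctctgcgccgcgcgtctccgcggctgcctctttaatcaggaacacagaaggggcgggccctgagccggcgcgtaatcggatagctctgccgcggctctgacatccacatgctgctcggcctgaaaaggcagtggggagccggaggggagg
PLXND1, chr3:129606677-129606926, minus strand: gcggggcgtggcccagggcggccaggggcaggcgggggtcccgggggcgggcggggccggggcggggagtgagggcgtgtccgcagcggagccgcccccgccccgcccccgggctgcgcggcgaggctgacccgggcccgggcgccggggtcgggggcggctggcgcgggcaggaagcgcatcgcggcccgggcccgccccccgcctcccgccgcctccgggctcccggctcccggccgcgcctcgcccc
PLXNA2, chr1:208244385-208244634, minus strand: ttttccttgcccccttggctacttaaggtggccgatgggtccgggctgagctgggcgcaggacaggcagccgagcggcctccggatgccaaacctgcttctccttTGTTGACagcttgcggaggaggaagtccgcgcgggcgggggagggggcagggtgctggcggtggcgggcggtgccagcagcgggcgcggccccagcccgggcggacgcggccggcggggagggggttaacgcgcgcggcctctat
SEMA4B, chr15:90184670-90184917, plus strand: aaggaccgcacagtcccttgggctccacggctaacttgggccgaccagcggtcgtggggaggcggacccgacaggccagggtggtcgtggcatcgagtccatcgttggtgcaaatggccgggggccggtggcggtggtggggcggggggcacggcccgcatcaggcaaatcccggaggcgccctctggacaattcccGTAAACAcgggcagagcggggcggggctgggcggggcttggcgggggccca

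Other genes of semaphorin and plexin signaling were read from a list of 60, of which 51 were tested and 9 were under the filter, among them the VEGF receptor FLT1 and the neuropilin ligand VEGFD. With lapatinib in NT cells 18 of the 51 rose and 12 fell, beside 29.9% and 28.6% of all genes. On the log2 scale ERBB2, the HER2 gene, rose by 1.01 ± 0.0735 and the cofilin kinase LIMK2 by 0.81 ± 0.0514. RND1, a small GTPase that binds plexins, rose by 0.73 ± 0.097. PAK1, a kinase downstream of RAC1, fell by 2.21 (SE 0.156, adjusted p = 1.09e-05). SH3BP1, a GTPase-activating protein for RAC, fell by 1.59 (SE 0.201) and the cofilin kinase LIMK1 by 1.28 (SE 0.0604). In cells with FOXA1 siRNA lapatinib raised 15 of the 51 and lowered 12, beside 28.5% and 28.7% of all genes. LIMK2 (0.92 ± 0.0572), RND1 (0.83 ± 0.239) and MET, the HGF receptor (0.80 ± 0.0445), rose most, and PAK1 (-1.66 ± 0.129), SH3BP1 (-1.44 ± 0.22) and LIMK1 (-1.15 ± 0.0877) fell most among the listed genes with at least 100 normalized counts on average.

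FOXA1 siRNA in DMSO raised 17 and lowered 10 of these 51 genes, beside 21.0% of all genes in each direction. L1CAM, an adhesion molecule that associates with NRP1, rose by 1.46 ± 0.202 on the log2 scale, the GTPase RAC1 by 1.08 ± 0.0861 and the kinase FYN by 0.90 ± 0.141. RND1 fell by 2.80 (SE 0.156, adjusted p = 1.31e-05). VEGFC, which can bind NRP2, fell by 1.09 (SE 0.187) and ARHGEF11, an exchange factor for RHOA that binds class B plexins, by 0.50 (SE 0.0829). In lapatinib FOXA1 siRNA raised 16 and lowered 16, beside 22.2% and 21.8% of all genes. L1CAM (1.68 ± 0.141), PAK1 (1.05 ± 0.179) and FYN (0.995 ± 0.16) rose most there among the listed genes with at least 100 normalized counts on average, and RND1 (-2.70 ± 0.195), VEGFC (-1.70 ± 0.139) and MICAL1, an actin oxidoreductase (-0.75 ± 0.193), fell most. The lapatinib response differed between the siRNAs for 7 of the 51 genes, 3 positive and 4 negative, beside 3.99% and 3.20% of all genes. With the replicate block 14 differed, 7 in each direction, beside 11.1% and 9.22% of all genes. The response was more positive with FOXA1 siRNA for MICAL2 (0.40 ± 0.0672, adjusted p = 0.00473), MICAL3 (0.38 ± 0.0762, adjusted p = 0.0121) and MET (0.36 ± 0.0656, adjusted p = 0.00782). FURIN, a protease that cuts class 3 semaphorins, was raised by lapatinib with NT (0.23 ± 0.0618) and lowered with FOXA1 siRNA (-0.47 ± 0.0439), a difference of -0.68 ± 0.0755 (adjusted p = 0.000598). Lapatinib raised ERBB2 with both siRNAs, but by less with FOXA1 siRNA (difference -0.31 ± 0.0834, adjusted p = 0.0424). The shares of all genes called are those given above for each comparison.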

How the data were processed

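RNAseq of 12 SKBR-3 samples was used, 3 replicates in each of 4 groups, as given by the labels. The authors deposited, per sample, an expected count per gene, an estimated number of reads that need not be whole, together with TPM and mean transcript length. The authors also deposited an upper-quartile normalized signal, which was not used here. Methods name STAR, hg38 and Salmon, while the columns are those of RSEM, which the labels' processing notes list beside DESeq2 1.12.3 and R 3.2.2. Strand use in counting is not given in the sources used here. The labels name 2 library kits for each sample.

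Expected counts were rounded and tested in R 4.3.3 with edgeR 4.0.16 (TMM, glmQLFit, glmQLFTest) on the 14012 genes that reached 10 counts in any of the 12 samples. Each comparison of 2 groups used its own 6 samples and the interaction all 12. A gene was called at an adjusted p under 0.05 (Benjamini-Hochberg, all 14012 genes). Standard errors are the log2 fold change over the square root of F. Normalized counts were scaled by TMM to the mean library. In DESeq2 1.42.0 and the other alternatives (RLE, filters, one model, replicate block, stricter thresholds, each sample left out) the rest was kept, and omission of all samples numbered 2 was added after seeing the data. Replicate numbers were taken to pair samples in the replicate block, while the main fits had no replicate term. Deviations from group means over 12170 genes correlated at 0.24 to 0.622 for every same-numbered pair of groups (mean 0.388). For different numbers the correlations averaged -0.183 and reached 0.194. Centering on group means makes that average negative where same-numbered samples correlate, so it adds nothing on pairing. The labels do not say what a number stands for. Procedures were tested on simulated data. Named genes were all members and, of the pathway list, up to 3 called genes per direction with a mean of at least 100 normalized counts. The members and lists were chosen with earlier results of these data known. Gene positions and promoters are from RefSeq and exon overlaps from GENCODE v44, both on GRCh38. Tables and plots used Python 3.11.15, pandas 2.3.3 and matplotlib 3.10.9.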

Additional observations from a re-analysis of the deposited data

Results flagged for a closer look

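The response to lapatinib differed between FOXA1 siRNA and NT siRNA for 2 of the 26 members tested, by the interaction of the edgeR quasi-likelihood fit on 12 samples. For PLXND1 the response with FOXA1 siRNA minus that with NT siRNA was -0.91 on the log2 scale (adjusted p = 0.00473). For SEMA3E it was -0.48 (adjusted p = 0.0303), and 8 of the 12 fits that left out 1 sample lost that call.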

How the results depend on the processing

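Of the members' values, 2043 kept their side of the threshold under the alternatives, 139 lost a call and 69 gained one. In addition 1 untested value (SEMA6C, below) moved by more than its spread. No value called in either fit reversed its direction. Values called in neither fit could change sign and are among the 2043. An example is SEMA6B with FOXA1 siRNA in DMSO, at -0.71 to 0.53 (log2) with samples left out. DESeq2 gave no adjusted p for 4 values, which were left out. At an adjusted p under 0.01 the members lower with lapatinib and FOXA1 siRNA numbered 5, those lower with FOXA1 siRNA in DMSO 3, those higher with FOXA1 siRNA in lapatinib 3 and those with a more negative lapatinib response 1. With a log2 fold change of at least 1, higher and lower members numbered 2 and 2 for lapatinib with NT, 3 and 5 for lapatinib with FOXA1 siRNA, 2 and 1 for FOXA1 siRNA in DMSO and 2 and 1 in lapatinib, with 0 more negative in the lapatinib response. With the replicate block the members higher with FOXA1 siRNA in DMSO numbered 11, those lower in lapatinib 13, and those with a differing lapatinib response 2 and 7. The block changed no other count by over 1.5 times. DESeq2 called 5 more negative in the lapatinib response. With single samples left out, higher members numbered 7 to 11 and lower ones 6 to 8 for lapatinib with NT, 8 to 12 and 5 to 8 for lapatinib with FOXA1 siRNA, 6 to 11 and 5 to 6 for FOXA1 siRNA in DMSO, 4 to 6 and 6 to 9 for FOXA1 siRNA in lapatinib, and 0 and 1 to 3 for the difference. Omitting all samples numbered 2, chosen after seeing the data, gave 11 and 9, 13 and 8, 11 and 6, 6 and 10, and 2 and 6 in the same order, and a SEMA6C log2 fold change of 3.34 with NT. The cause of these changes was not tested. No shares of all genes are given for an adjusted p under 0.01 or for single samples left out. The numbers of members under those settings are therefore a description only. Counts of 10 or fewer limit SEMA6D, PLXNC1, SEMA3A, SEMA5A and SEMA5B.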
